A study of Mus musculus with 88 samples.

Results

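The genes described here carry out glycolysis, the step from pyruvate into mitochondria, and the tricarboxylic acid (TCA) cycle in mouse embryonic stem (ES) cells and late 2-cell embryos. They were chosen by name as 34 gene symbols: 2 glucose transporters, 9 genes from hexokinase to triosephosphate isomerase, 5 from glyceraldehyde-3-phosphate dehydrogenase to pyruvate kinase, 2 lactate dehydrogenase subunits, 5 genes of the pyruvate dehydrogenase complex and its kinase, and 11 TCA cycle genes. All 34 symbols were found in both expression tables, each of which has 55364 rows. They took 35 rows, because Aldoa had a second row at 0.177 to 4.42 TPM in ES cells. The higher Aldoa row was used.

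The libraries were made from total RNA with a stranded SMART-seq kit and are given as TPM, a relative abundance that corrects for the length of a gene and adds up to the same total in each library. Of 88 samples in the series, 25 libraries were analysed here. The 19 ES libraries came from male ES cells of a C57BL/6 and 129 hybrid line, labelled wild-type, grown on gelatin with LIF, PD0325901 and CHIR99021 and transfected with a plasmid by Lipofectamine 2000. The groups with 2 libraries each received an empty plasmid (ES_Empty) or one for Dux, Obox3, Obox5 or Obox6. Single libraries received Obox1, Obox2, Obox4ps27, Obox4ps35, Obox7, Obox8, Crxos1, Crxos2 or Crxos3. Where transfection does not reach every cell of a dish, a level is a mean over transfected and untransfected cells. Dux, Crxos and the protein-coding Obox genes encode homeodomain transcription factors, several of which are active in the oocyte or the early embryo. Obox4ps27 and Obox4ps35 are named as Obox4 pseudogene copies, and Crxos1, Crxos2 and Crxos3 are constructs of Crxos.

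The 6 embryo libraries were late 2-cell embryos labelled wild-type, with 2 libraries per group. ICSI_L2C embryos were made by injecting a sperm into an oocyte, with BDF1 parents on both sides. SCNT_EGFP_L2C and SCNT_Obox3_L2C embryos came from somatic cell nuclear transfer (SCNT), in which the nucleus of a BDF1 cumulus cell, a cell that surrounds the oocyte, replaces the oocyte's own. These embryos were injected with EGFP or Obox3 mRNA at 10 ng/µl. The labels do not tie the replicates to separate cultures or collections. The p-values thus reflect the scatter of these libraries alone, and that scatter may be technical. In bulk samples, fewer cells of a type and less RNA per cell cannot be told apart.

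Glycolysis splits glucose into pyruvate in the cytosol. Hexokinase traps glucose in the cell, phosphofructokinase commits it to the pathway, and pyruvate kinase makes pyruvate. Lactate dehydrogenase converts pyruvate and lactate into each other, while the pyruvate dehydrogenase complex turns pyruvate into the acetyl-CoA that citrate synthase feeds into the TCA cycle. Cultured ES cells are known for high glycolysis, whereas cleavage-stage mouse embryos use pyruvate and lactate and make little use of glucose.

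Genes at 1 TPM or more numbered 12071 to 17597 in ES libraries and 15604 to 16450 in embryo libraries. TPM is a share of a fixed total, and the top 10 genes of a library took 48.9 to 73.8% of it in ES cells and 57.4 to 72.6% in embryos. In ES_Dux the top 10 genes took 72.1 and 70.1%, against 54.5 and 58.8% in ES_Empty. The unnumbered ES_Obox3 library, whose column carries a replicate number absent from the labels, stood apart: its most abundant transcript alone took 53.7%, against 39.8% in the other ES_Obox3 library. The 10 ES cell markers examined were at 1 TPM or more in all 19 ES libraries, and the 11 oocyte markers in all 6 embryo libraries. Changes are therefore given as deposited and again after dividing each library by its median ratio over genes at 1 TPM or more in every library. A gene was called changed when limma's adjusted p, over all genes tested, was under 0.05 and the difference was at least 2-fold on the log2(TPM + 1) scale.

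In ES cells genes of glycolysis had the highest levels. Pyruvate kinase Pkm and aldolase Aldoa held the top 2 ranks among the 34 genes in every ES library, and enolase Eno1 ranked 3 or 4. In ES_Empty, Pkm stood at 349 and 278 TPM, Aldoa at 325 and 264, and Eno1 at 256 and 189. Pkm and Aldoa overlapped, and both lay above Eno1. Aldoc, the brain-type aldolase, was last in every library, at 3.05 and 2.39 TPM in ES_Empty. TPM is scaled by length, so these levels can be compared between genes, but processed copies blur some of them. Annotated copies of Pgam1 summed to 85.5 to 204 TPM across ES libraries, and Eno1b to 36.1 to 119 TPM. Gapdh, an abundant transcript in most cells, was listed at only 37.5 and 35.9 TPM in ES_Empty. How reads that match several copies were counted is not given in the sources used here, so the levels of Gapdh, Pgam1 and Eno1 are uncertain.

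Within enzyme families, ES_Empty cells used Slc2a3 over Slc2a1 and Hk2 over Hk1. Slc2a3, a glucose transporter of high affinity, was at 119 and 99.1 TPM, and Slc2a1, the widely expressed transporter, at 46.7 and 41.4 TPM. Hk2, an inducible hexokinase, was at 61.7 and 54.5 TPM, and Hk1 at 5.97 and 4.07 TPM. The phosphofructokinases were near each other, with Pfkl at 15.7 and 13 TPM, Pfkm at 11.2 and 9.24 TPM, and Pfkp at 12 and 11.3 TPM. Lactate dehydrogenase was shared about evenly: Ldhb made up 50.1 and 55.3% of the Ldha and Ldhb sum.

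In ES_Obox6, Pfkm rose, while most of the hexose phase did not: 1 of its 9 members was called higher as deposited, 3 after scaling and 0 lower under either, and its median difference was -0.12 as deposited and 0.13 after scaling. Pfkm, the muscle-type phosphofructokinase (GRCm38.p6 chromosome 15, 98092589 to 98132447), stood at 34.8 and 35.6 TPM in ES_Obox6. The highest value in any other ES library was 14.5 TPM, in 1 ES_Obox3 library. Pfkm rose by 1.70 on the log2 scale against ES_Empty (SE 0.21, adjusted p 0.00315, limma) and by 1.90 after scaling (SE 0.10, adjusted p 0.0001). It was the 1 member called higher as deposited, where 2.39% of all 20355 genes tested were called higher. After scaling, 4 members were called higher, against 3.3% of 20074 genes. The members' median difference after scaling was 0.02.

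The other 3 genes called after scaling were Slc2a1, Hk1 and Pfkp. Slc2a1 was at 78.6 and 76.2 TPM in ES_Obox6, above every other ES library. Its difference was 0.80 as deposited (SE 0.21, adjusted p 0.0659, limma) and 1.04 after scaling (SE 0.08, adjusted p 0.000459). Hk1, the hexokinase of most adult tissues, was at 11.6 and 10.0 TPM, with no overlap with ES_Empty. Its difference was 0.99 as deposited (SE 0.24, adjusted p 0.0543, limma) and 1.16 after scaling (SE 0.14, adjusted p 0.00323). Pfkp, the platelet-type phosphofructokinase, was at 19.9 and 22.9 TPM. Its difference was 0.82 as deposited (SE 0.22, adjusted p 0.0737, limma) and 1.04 after scaling (SE 0.14, adjusted p 0.00468). Hk2, Slc2a3 and Pfkl, the members of these families with the highest levels in ES_Empty, were not called higher. Hk2, the dominant hexokinase of ES_Empty, was at 33.95 and 31.5 TPM against 61.7 and 54.5 TPM, a difference of -0.81 (SE 0.17, adjusted p 0.0331, limma) and -0.56 after scaling (adjusted p 0.0164), short of 2-fold under both. The summed TPM of Hk1 and Hk2 was 45.5 and 41.6 in ES_Obox6, below 67.7 and 58.5 in ES_Empty. Slc2a3 (-0.16, adjusted p 0.72, limma) and Pfkl (-0.38, adjusted p 0.36) did not pass.

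**Figure D1:**
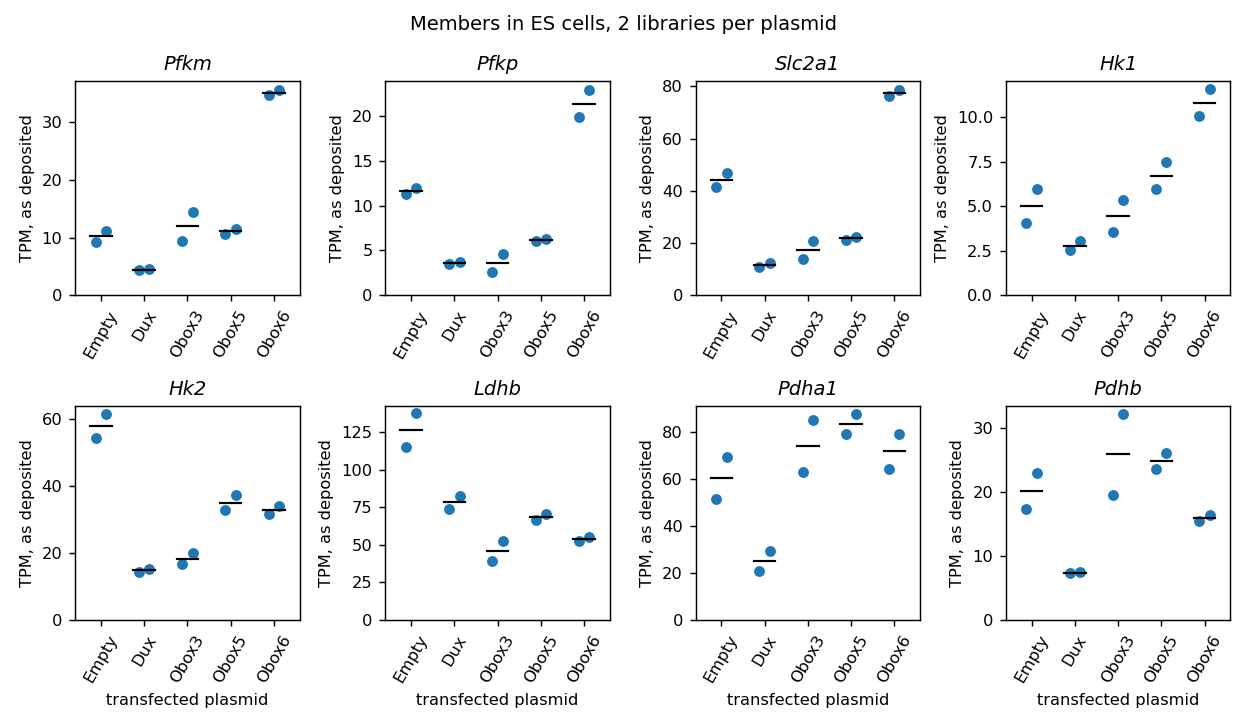
TPM of 8 members in ES cells (y axes, linear from 0) by transfected plasmid (x axes). Points are the 2 libraries of each group and lines their mean. Pfkm, Slc2a1 and Hk1 are highest in both Obox6 libraries, and Hk2 and Ldhb are highest in both Empty libraries.

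Ldhb, the heart-type subunit of lactate dehydrogenase, went the other way. It was at 52.7 and 55.2 TPM in ES_Obox6 against 138 and 115 TPM in ES_Empty. It was the 1 member called lower as deposited (1.99% of all genes), with a log2 difference of -1.21 (SE 0.20, adjusted p 0.010, limma). After scaling the difference was -0.96 (SE 0.11, adjusted p 0.00264), short of 2-fold, and 0 members were called lower (1.18% of all genes), with 11 of 34 at an unadjusted p under 0.05 in either direction. Without ES_Empty replicate 1 the adjusted p was 0.0907, and without either ES_Obox6 library it was 0.0664 or 0.0545. Ldha, the muscle-type subunit, was at 120 and 105 TPM, between the ES_Empty values of 93.1 and 137 TPM (-0.00, adjusted p 1, limma). Gapdh was at 32.6 and 26.6 TPM, below both ES_Empty libraries, with a difference of -0.31 (adjusted p 0.584, limma).

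To show the start sites of these genes, the RefSeq promoter windows of the members were searched on both strands for 4 sets of letters. Windows run from 250 bases before to 50 after a start site, on GRCm38.p6, and 32 of the 34 members have 1 or more, 49 in all. ACGTG, the core of the hypoxia response element, was found in 22 of the 49 (44.9%), against 19.6% of all 32851 windows. CACGTG, the E-box bound by Myc and its relatives, contains ACGTG and was found in 5 windows (10.2% against 7.15%), those of Ldha, Ogdh and Pfkm. TAATCC, a core bound by Crx-type homeodomains, was found in 7 windows (14.3% against 7.06%), those of Aldoc, Cs, Ldha, Ogdh, Pfkm and Pfkp. The double homeodomain motif of the Dux type was found in none, against 0.0335% of all windows. Some windows of 1 gene overlap, so windows are not independent.

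The stretches below show these letters before the start sites of Pfkm, Pfkp and Slc2a1, called higher in ES_Obox6 as deposited or after scaling, and of Ldha. In the Hk1 window ACGTG lies after the start site, at 7 to 11 and 16 to 20 bases, and is not shown. The stretches run 5′ to 3′ on the gene's strand, with the letters of the motif in capitals. The Pfkm stretches are chr15:98092339-98092588, with CACGTG, and chr15:98111810-98112059, with TAATCC on the opposite strand. That of Pfkp is chr13:6648973-6649002 on the minus strand, with TAATCC. That of Slc2a1 is chr4:119108495-119108744, with ACGTG, and that of Ldha is chr7:46845554-46845803, with CACGTG and a further ACGTG on the opposite strand. A match is a description of these letters and not a binding site.
Pfkm first start site: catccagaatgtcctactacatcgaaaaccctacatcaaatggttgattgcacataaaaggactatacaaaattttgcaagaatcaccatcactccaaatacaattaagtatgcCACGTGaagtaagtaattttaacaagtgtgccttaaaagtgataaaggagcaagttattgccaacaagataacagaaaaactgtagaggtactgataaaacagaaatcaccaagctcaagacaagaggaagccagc
Pfkm internal start site: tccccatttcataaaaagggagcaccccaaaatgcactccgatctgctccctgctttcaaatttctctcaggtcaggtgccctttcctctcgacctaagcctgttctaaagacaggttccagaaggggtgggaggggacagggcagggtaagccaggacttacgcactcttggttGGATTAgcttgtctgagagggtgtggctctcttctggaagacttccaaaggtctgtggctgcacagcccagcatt
Pfkp: cctacccggctaTAATCCctccatcccccg
Slc2a1: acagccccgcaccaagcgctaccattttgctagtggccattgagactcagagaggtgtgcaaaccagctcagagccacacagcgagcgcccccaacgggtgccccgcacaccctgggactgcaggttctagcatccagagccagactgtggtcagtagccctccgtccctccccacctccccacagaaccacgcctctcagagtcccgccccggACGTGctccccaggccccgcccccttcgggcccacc
Ldha: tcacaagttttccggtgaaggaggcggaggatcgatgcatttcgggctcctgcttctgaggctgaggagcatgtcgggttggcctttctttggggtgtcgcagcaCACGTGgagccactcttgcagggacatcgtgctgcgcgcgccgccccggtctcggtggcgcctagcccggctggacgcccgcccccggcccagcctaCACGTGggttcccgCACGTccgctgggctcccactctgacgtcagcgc

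The shares within enzyme families, which do not depend on scaling, differed between the transfected groups. Pfkm made up 53.2 and 53.7% of phosphofructokinase TPM in ES_Obox3, 44.6 and 41.9% in ES_Obox5, and 52.6 and 52.0% in ES_Obox6, against 28.8 and 27.5% in ES_Empty. The 9 single ES libraries ranged from 18.0 to 34.5%. Slc2a1 made up 12.2 and 11.6% of glucose transporter TPM in ES_Obox3 and 15.1 and 15.0% in ES_Obox5, against 28.3 and 29.5% in ES_Empty and 42.8 and 45.9% in ES_Obox6. The Pfkm share was thus high with all 3 factors, while the Slc2a1 share was low with Obox3 and Obox5 and high with Obox6. The Pfkm level was called higher than in ES_Empty with Obox6 alone. As deposited, the phosphofructokinase sum was 27.3 and 17.6 TPM in ES_Obox3 and 25.7 and 25.5 TPM in ES_Obox5. It was 66.1 and 68.6 TPM in ES_Obox6, against 38.8 and 33.6 TPM in ES_Empty. Hk1 made up 21.2 and 17.4% of hexokinase TPM in ES_Obox3, 16.6 and 15.3% in ES_Obox5 and 25.4 and 24.2% in ES_Obox6, against 8.82 and 6.96% in ES_Empty. Ldhb made up 37.7 and 38.7%, 45.9 and 48.5%, and 30.4 and 34.4% of lactate dehydrogenase in ES_Obox3, ES_Obox5 and ES_Obox6. None of these ranges overlapped that of ES_Empty. ES_Dux differed from ES_Empty as well, with Hk1 at 17.3 and 14.3%, near ES_Obox5, Slc2a1 at 21.7 and 24.9%, and Ldhb at 56.8 and 60.3%, while its Pfkm share was 27.3 and 24.6%. The 9 single libraries spanned 24.1 to 41.3% for Slc2a1, 6.82 to 14.4% for Hk1 and 44.5 to 60.4% for Ldhb. Both ES_Obox5 values and both ES_Dux values of Ldhb lay within that last span. The unnumbered ES_Dux library also lay within the spans of Slc2a1 and Hk1. With 2 libraries against 2, an exact two-sided permutation test cannot go below 0.333, so the shares were not tested.

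**Figure D2:**
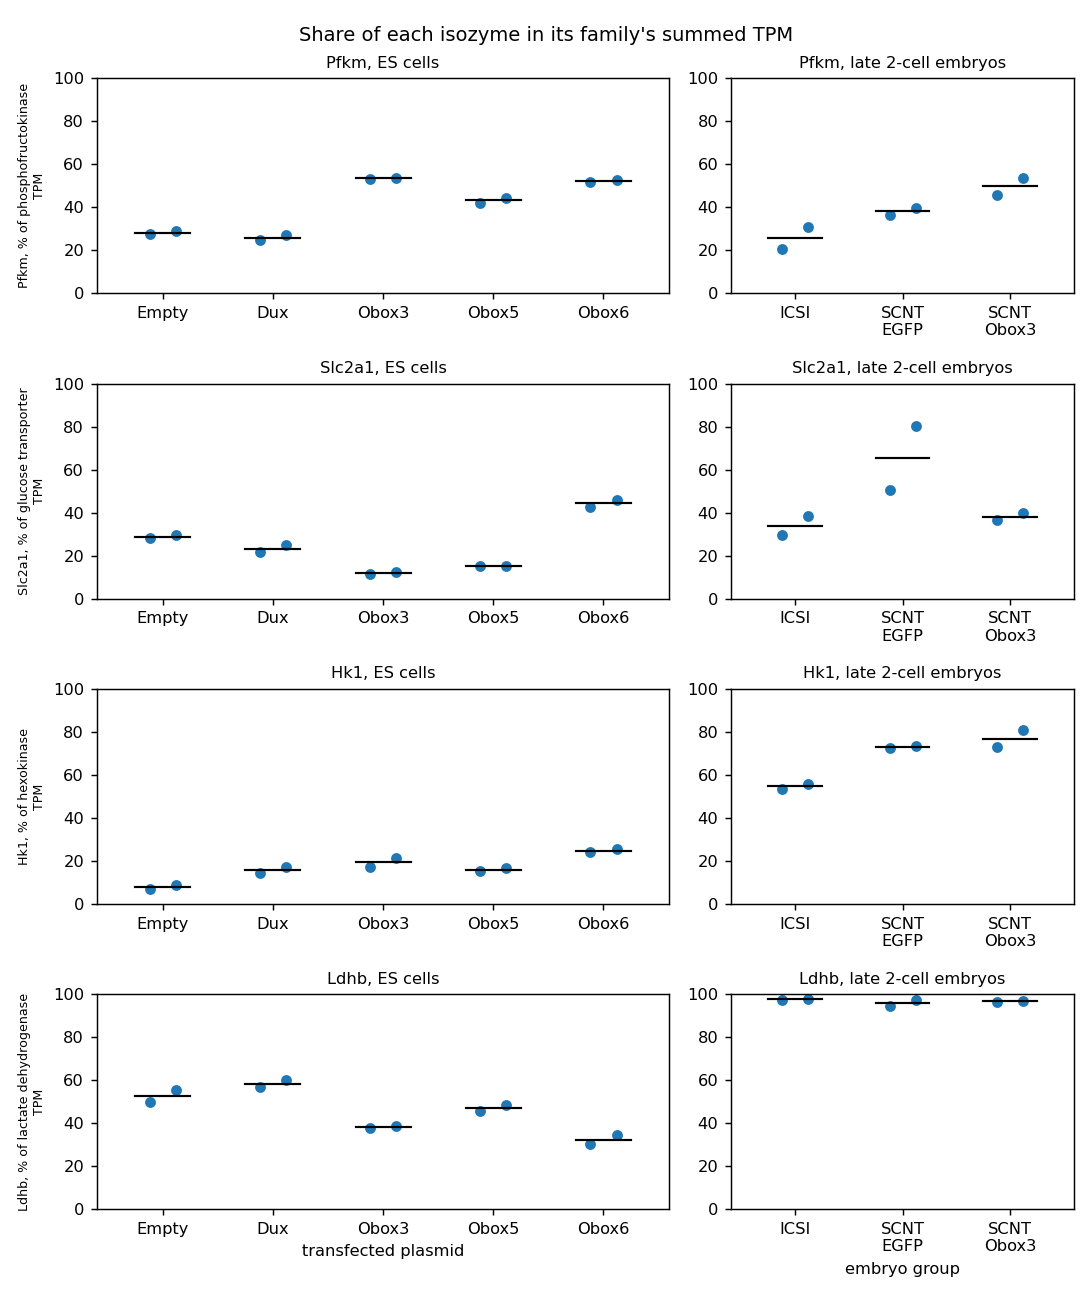
Share (%) of Pfkm, Slc2a1, Hk1 and Ldhb in the summed TPM of their enzyme family (y axes, 0 to 100) in ES cells by plasmid (left) and in late 2-cell embryos (right). Points are libraries and lines the mean of 2. The Pfkm share is above 40% in all Obox3, Obox5 and Obox6 ES libraries and below 30% in Empty and Dux.

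Against ES_Empty, 10 members were called lower in ES_Obox3 as deposited and 0 higher, where 13.6% of all genes were called lower and 4.67% higher. The median over all genes was -0.42 and the members' median -0.67, a distance of -0.25 as deposited. With scaling these medians were 0.01 and -0.07. After scaling, 0 members were called in either direction (7.93% of all genes higher, 3.81% lower), with 18 of 34 at an unadjusted p under 0.05. Hk2, Pfkp and Ldhb stood lowest. Hk2 was at 19.9 and 16.8 TPM, with a log2 difference of -1.61 (SE 0.17, adjusted p 0.000481, limma) and -0.99 after scaling (adjusted p 0.000527). Pfkp was at 4.57 and 2.62 TPM, at -1.49 (SE 0.22, adjusted p 0.00196, limma) and -0.94 after scaling (adjusted p 0.00285). Ldhb was at 52.6 and 39.2 TPM, at -1.45 (SE 0.20, adjusted p 0.00137, limma) and -0.82 after scaling (adjusted p 0.00184). Each was below both ES_Empty libraries. The ES cell marker list summed to 1423 and 1081 TPM in ES_Obox3, 1574 and 1514 TPM in ES_Obox5 and 1779 and 1575 TPM in ES_Obox6, against 2556 and 2199 TPM in ES_Empty. The 2-cell list summed to 115 and 79.5, 105 and 91.8, and 81.3 and 71.1 TPM, against 2.10 and 0.478 TPM. These sums are as deposited, and the median ratios used for scaling were lower in each of these Obox groups than in ES_Empty. The part of these lists in the members' values was not tested. The 10 calls rest on single libraries: there were 4 without the unnumbered ES_Obox3 library or without ES_Empty replicate 1, and 16 without ES_Obox3 replicate 1.

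Gapdh was at 23.9 and 12.6 TPM in ES_Obox3, a difference of -1.03 (SE 0.28, adjusted p 0.0237, limma) that became -0.42 after scaling (adjusted p 0.0648) and lost its call without either ES_Empty library or the unnumbered ES_Obox3 library (adjusted p 0.0722 to 0.107). Ldha was at 86.8 and 62.1 TPM, below both ES_Empty libraries, but at 0.020 after scaling (adjusted p 0.955, limma), near the all-gene median of 0.01.

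The genes for the first enzyme of the pyruvate dehydrogenase complex stood on the other side. They are described outside the rule for named genes, chosen after their values were seen. Pdha1, its alpha subunit, was at 85.0 and 63.1 TPM in ES_Obox3 and 88.0 and 79.4 TPM in ES_Obox5, against 69.4 and 51.4 TPM in ES_Empty. After scaling it differed by 0.92 (SE 0.14, adjusted p 0.00343, limma) and 0.79 (SE 0.14, adjusted p 0.00861), under 2-fold in both. Pdhb, the beta subunit, was at 32.2 and 19.6 TPM in ES_Obox3 and 26.0 and 23.7 TPM in ES_Obox5, against 23.0 and 17.3 TPM. After scaling it differed by 0.92 (SE 0.11, adjusted p 0.00109, limma) and 0.60 (SE 0.11, adjusted p 0.00991). As deposited, neither gene passed in either comparison. Dlat and Dld, the other enzymes of the complex, were between -0.00 and 0.11 after scaling in both comparisons and did not pass.

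In ES_Obox5 the 1 member called was Pdk1, the kinase that switches the pyruvate dehydrogenase complex off, and it was lower (5.47% of all genes lower, 4.79% higher). It was at 5.80 and 4.57 TPM against 12.9 and 12.8 TPM in ES_Empty, with a difference of -1.17 (SE 0.24, adjusted p 0.0136, limma). After scaling it was at -0.86 (adjusted p 0.00553), and 0 members were called (6.23% of all genes higher, 2.34% lower), with 16 of 34 at an unadjusted p under 0.05. Leaving out either ES_Empty library or the unnumbered ES_Obox5 library ended the call (adjusted p 0.0683 to 0.0978). Gapdh was at 24.4 and 22.2 TPM (-0.64, adjusted p 0.163, limma), Ldha at 78.6 and 75.1 TPM (-0.55, adjusted p 0.158) and Ldhb at 66.7 and 70.6 TPM (-0.87, adjusted p 0.0213, short of 2-fold). All 3 lay below both ES_Empty libraries.

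With Dux, the members were lower as deposited by a median equal to that of all genes, but after scaling their median lay above it. In ES_Dux 33 of 34 members were lower in both libraries than in either ES_Empty library, as were 72.9% of all genes tested, and 16 members were called lower and 0 higher, against 44.4% and 4.12% of all genes. The members' median log2 difference was -0.97, and that of all genes was also -0.97. The all-gene median includes low genes, whose changes the log2(TPM + 1) scale understates. As deposited it is thus not a measure for genes at the members' levels. After scaling 0 members were called in either direction (8.01% of all genes higher, 2.35% lower), with 21 of 34 at an unadjusted p under 0.05. The members' median was then 0.37 against -0.03 over all genes, and 5 of 34 members lay below the all-gene median. The 2-cell marker list summed to 3681 and 4354 TPM in ES_Dux against 2.10 and 0.478 TPM in ES_Empty. That list includes Duxf3, a name of Dux itself, so reads from the plasmid may count in the ES_Dux sum. The ES cell marker list summed to 935 and 998 TPM against 2199 to 2556 TPM. Both sums are as deposited. The median ratios used for scaling were 0.521 and 0.553 in ES_Dux against 1.55 and 1.33 in ES_Empty, so the lower ES cell sum is not separate from the general fall in TPM. The part of these shifts in the members' fall was not tested.

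Relative to that general fall, Hk2, Slc2a1 and Pdk1 were the lowest members in ES_Dux. Hk2 was at 14.4 and 15.1 TPM, a difference of -1.90 (SE 0.17, adjusted p 0.000169, limma) that stayed negative after scaling, at -0.54 (adjusted p 0.00969). Slc2a1 was at 10.9 and 12.4 TPM, at -1.83 (SE 0.21, adjusted p 0.0003, limma) and -0.48 after scaling (adjusted p 0.00502). Pdk1 was at 2.98 and 4.04 TPM, at -1.63 (SE 0.24, adjusted p 0.000619, limma) and -0.41 after scaling (adjusted p 0.0707). All 3 lay below both ES_Empty libraries without overlap. Ldhb was at 73.8 and 82.3 TPM, -0.69 as deposited (adjusted p 0.0139, limma) and 0.72 after scaling (adjusted p 0.00427). Ldha was at 56.2 and 54.3 TPM, -1.02 (adjusted p 0.0052, limma) and 0.39 after scaling (adjusted p 0.0479). Gapdh was at 12.8 and 15.9 TPM, -1.30 (adjusted p 0.00333, limma) and 0.055 after scaling (adjusted p 0.817). So the direction of all 3 depended on the scaling.

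**Figure D3:**
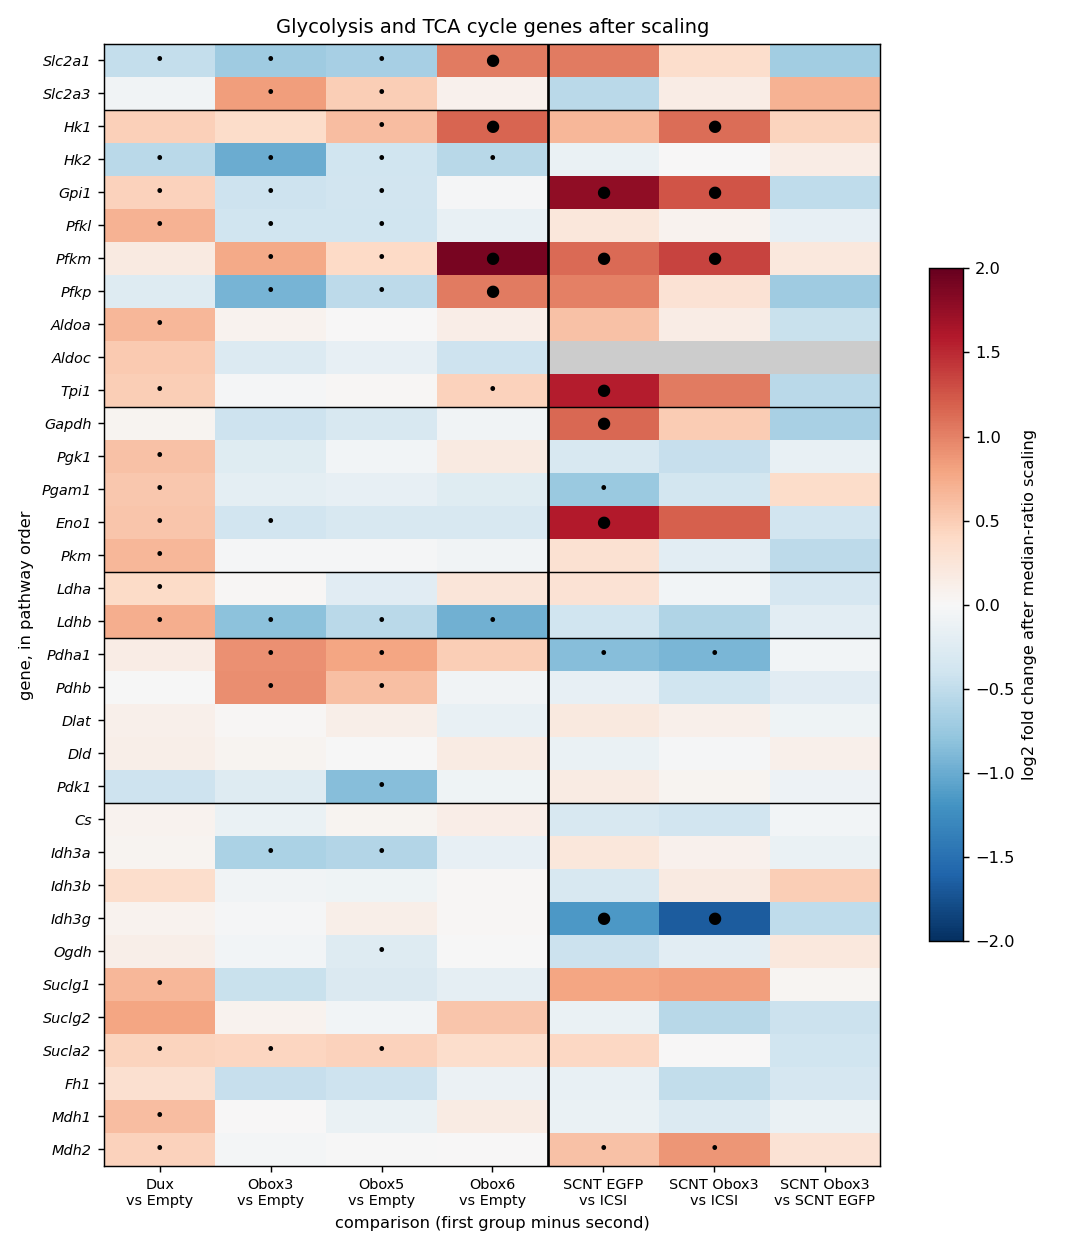
Log2 fold change after median-ratio scaling (colour, red higher and blue lower in the first group, from -2 to 2) of the 34 members in pathway order (rows) in 7 comparisons (columns), with horizontal lines between roles. Large dots mark limma's adjusted p under 0.05 with at least 2-fold, small dots adjusted p under 0.05 below 2-fold, and grey marks Aldoc, not tested in embryos. The large dots of ES cells lie in the Obox6 column alone.

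The comparisons so far share the ES_Empty libraries. Set directly against ES_Obox3, ES_Dux had 4 members called lower and 0 higher as deposited (20.3% and 3.42% of all genes), namely Slc2a3, Pdhb, Pdha1 and Pfkm, with 13 of 34 at an unadjusted p under 0.05. After scaling none of the 4 reached 2-fold (-0.58 to -0.94), and Ldhb, Suclg1 and Pfkl were called higher (9.11% of all genes higher, 9.64% lower). Ldhb differed by 1.54 (SE 0.11, adjusted p 6.83e-05, limma), its 2 ES_Dux values lying above both ES_Obox3 values also as deposited. Gapdh was at -0.27 as deposited (adjusted p 0.494, limma) and 0.47 after scaling (adjusted p 0.0305). Ldha was at -0.40 (adjusted p 0.227, limma) and 0.37 after scaling (adjusted p 0.0416).

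Set directly against ES_Obox3, ES_Obox6 had Pfkp, Slc2a1, Pfkm and Hk1 called higher and 0 members lower as deposited (6.61% and 2.52% of all genes), with 17 of 34 at an unadjusted p under 0.05. Pfkp differed most, by 2.31 (SE 0.22, adjusted p 0.000763, limma) and 1.97 after scaling. Slc2a1 differed by 2.13 (SE 0.21, adjusted p 0.000842, limma) and 1.75 after scaling, and Pfkm by 1.51 (SE 0.21, adjusted p 0.00396) and 1.14 after scaling. Hk1 lost its call after scaling (0.79, adjusted p 0.0093, limma), which left 3 members higher and 0 lower (3.24% and 4.45% of all genes). Without ES_Obox3 replicate 1 the count higher was 10. Gapdh, Ldha and Ldhb did not pass as deposited (0.72, 0.61 and 0.24; adjusted p 0.113, 0.117 and 0.429, limma).

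Around the pathway, 96 further genes in 6 lists were read the same way, of which 76 were tested in ES cells as deposited and 72 after scaling. Called under both, 5 rose and 2 fell in ES_Obox3 (4.6% and 3.75% of all genes), 6 rose and 3 fell in ES_Obox5 (4.6% and 2.31%), and 4 rose and 3 fell in ES_Obox6 (2.31% and 1.14%), while 0 were called under both in ES_Dux (4.11% of all genes higher, 2.31% lower; limma, with 65 at an unadjusted p under 0.05 as deposited and 24 after scaling). Among 13 genes of pyruvate transport and pyruvate dehydrogenase control, Pdp2, the phosphatase that switches the pyruvate dehydrogenase complex on, rose the most. It was at 50.8 and 33.1 TPM in ES_Obox3, 40.3 and 32.0 TPM in ES_Obox5 and 24.3 and 21.2 TPM in ES_Obox6, against 4.86 and 4.47 TPM in ES_Empty and 1.79 and 2.29 TPM in ES_Dux. Its log2 differences from ES_Empty were 2.89, 2.71 and 2.07 (SE 0.23 each, adjusted p 0.000168, 0.000333 and 0.00218, limma). All 3 Obox groups lay above ES_Empty with no overlap.

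Hkdc1, a little-expressed member of the hexokinase family, was near 0 in ES_Empty (0.0523 and 0.0799 TPM) and at 5.48 and 4.47 TPM in ES_Obox3 and 4.89 and 5.55 TPM in ES_Obox6. It rose by 2.48 and 2.54 on the log2(TPM + 1) scale (SE 0.21 each, adjusted p 0.000203 and 0.000552, limma). Vhl, which marks the hypoxia factor HIF-1alpha for destruction, was at 29.8 and 18.5 TPM in ES_Obox3 and 26.2 and 20.3 TPM in ES_Obox5, against 5.20 and 5.75 TPM. It rose by 1.92 and 1.90 (SE 0.31 each, adjusted p 0.00307 and 0.00531, limma). Slc16a3, a lactate exporter, was at 8.42 and 10.2 TPM in ES_Obox6 against 2.45 and 2.16 TPM, and rose by 1.64 (SE 0.21, adjusted p 0.00343, limma).

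The Myc genes are known as activators of glycolytic transcription. Myc fell in ES_Obox3 and ES_Obox5, and Mycn in ES_Obox5 and ES_Obox6. The values of each in the remaining groups are not given here. Myc was at 1.98 and 1.40 TPM in ES_Obox3 and 2.15 and 3.19 TPM in ES_Obox5, against 15.0 and 15.4 TPM in ES_Empty. It fell by 2.60 and by 2.16 on the log2 scale (SE 0.22 each, adjusted p 0.000203 and 0.000615, limma). Mycn was at 10.3 and 11.2 TPM in ES_Obox5 and 9.16 and 10.3 TPM in ES_Obox6, against 43.1 and 27.8 TPM. Its differences were -1.604 and -1.73 (SE 0.23 each, adjusted p 0.00283 and 0.00393, limma). Each named group lay below ES_Empty without overlap.

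Directly between factors, 8 of these further genes were lower in ES_Dux than in ES_Obox3 under both scalings, where 9.29% of all genes were, led by Pdp2 (-3.80, adjusted p 1.74e-05, limma), Vhl (-3.32, adjusted p 0.000122), Tigar (-3.30, adjusted p 2.69e-05) and Hkdc1 (-2.26, adjusted p 0.000122). Tigar, a phosphatase that lowers the activator of phosphofructokinase, was at 54.9 and 41.2 TPM in ES_Obox3 and 4.48 and 3.42 TPM in ES_Dux, against 17.4 and 14.2 TPM in ES_Empty. Between ES_Obox6 and ES_Obox3, Eno3 was higher (1.36, adjusted p 0.0233, limma) and Vhl (-1.33, adjusted p 0.0272), Lin28a (-1.15, adjusted p 0.0181) and Tigar (-1.10, adjusted p 0.0169) were lower. Each of these 4 lost its call without 1 or more of the libraries compared (adjusted p up to 0.124, or a difference under 2-fold).

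**Figure D4:**
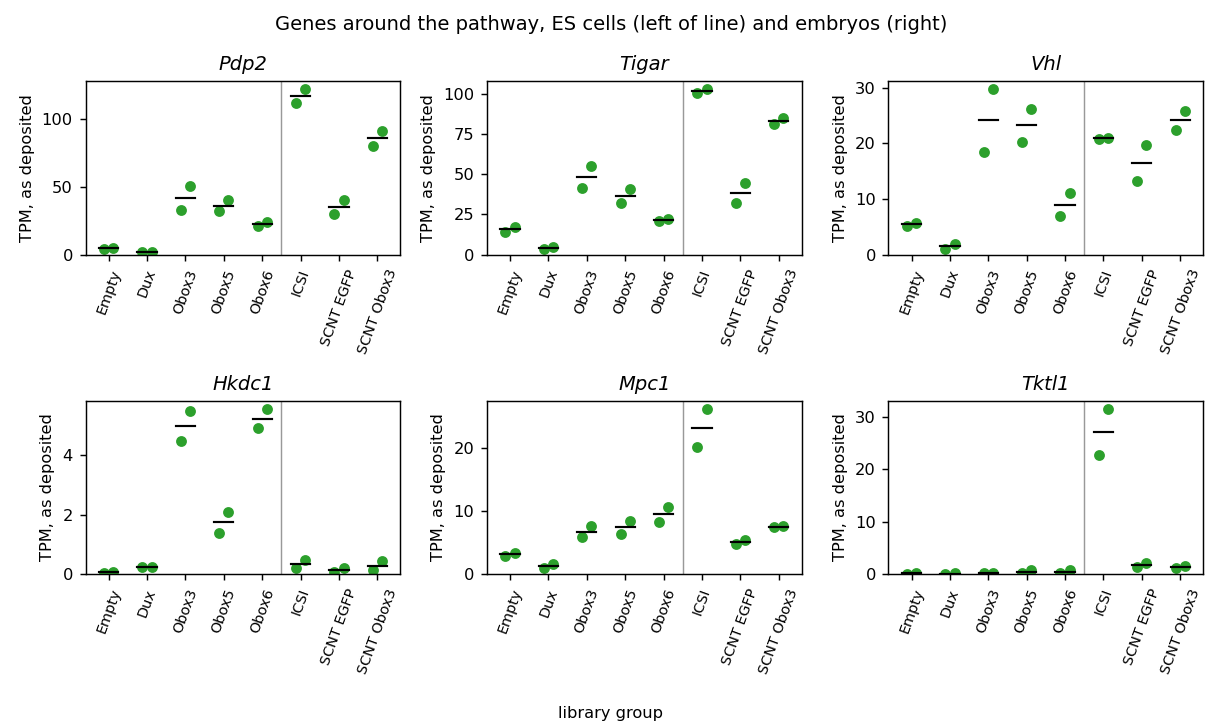
TPM of 6 genes around the pathway (y axes, linear from 0) in ES cells by plasmid (left of the line) and in late 2-cell embryos (right). Points are libraries and lines the mean of 2. Pdp2 and Tigar are above Empty in both libraries of Obox3, Obox5 and Obox6, and in embryos lie lowest in SCNT EGFP.

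The 9 ES groups with 1 library have no replicate check and were compared with the ES_Empty mean by size alone. With Obox1, Obox2, Obox7, Crxos1, Crxos2 and Crxos3, 0 of 34 members were past 2-fold as deposited. Of all 23428 genes, 3.6, 3.49, 7.03, 4.32, 4.03 and 7.57% were higher by 2-fold with these plasmids in that order, and 3.84, 3.28, 2.7, 2.38, 2.81 and 1.86% lower. With Obox4ps27, Pdk1 was at 5.63 TPM and below ES_Empty by more than 2-fold (-1.06), while 3.14% of all genes were (4.61% higher). With Obox4ps35, Pfkp was at 24.8 TPM and above it by more than 2-fold (1.03), while 3.62% of all genes were (4.29% lower). With Obox8, Hk2 was at 22.5 TPM (-1.33), while 3.17% of all genes were lower by more than 2-fold (6.98% higher). The members' median differences lay between -0.12 and 0.23. The Pfkm share stayed under 35% in all 9.

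Late 2-cell embryos had a different order of the same genes. Ldhb ranked first in every embryo library, at 251 and 149 TPM in ICSI_L2C, followed in ranks 2 to 4 by citrate synthase Cs, Pkm and malate dehydrogenase Mdh2. Cs was at 69.3 and 62.9 TPM, Pkm at 63.3 and 55.8 TPM and Mdh2 at 43.1 and 44.6 TPM. Ldha was at 6.11 and 3.16 TPM, so that Ldhb made up 94.7 to 97.9% of lactate dehydrogenase TPM across embryo libraries, against 30.4 to 60.4% across ES libraries. Hk1 exceeded Hk2 in every embryo library, with 53.5 to 80.8% of hexokinase TPM, the reverse of ES cells. Aldoc was at 0 to 0.508 TPM and was not tested. The ES and embryo tables were normalised separately, so levels are not tested across them, and ranks and shares within libraries are given as a description.

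Between nuclear transfer and sperm-injected embryos, members were called in both directions, with the lower ones no more frequent than among all genes. In SCNT_EGFP_L2C against ICSI_L2C, Gpi1, Tpi1 and Eno1 were called higher and Idh3g, Pdha1 and Pgam1 lower as deposited, while 4.8% of 18252 genes were called higher and 12.5% lower. After scaling, 5 members were higher, with Gapdh and Pfkm added, and Idh3g was the 1 member lower (6.91% and 7.86% of all genes). The all-gene median was -0.20 as deposited and 0.04 after scaling.

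The higher genes belong to glycolysis. Gpi1, the isomerase that follows hexokinase, was at 13.8 and 10.0 TPM in SCNT_EGFP_L2C and 3.33 and 3.54 TPM in ICSI_L2C. It rose by 1.53 (SE 0.22, adjusted p 0.0059, limma) and by 1.77 after scaling (adjusted p 0.00733). Tpi1, triosephosphate isomerase, was at 11.6 and 5.35 TPM against 2.23 and 2.87 TPM, a rise of 1.34 (SE 0.35, adjusted p 0.0376, limma) and 1.58 after scaling. Eno1, enolase, was at 11.6 and 10.8 TPM against 5.32 and 2.68 TPM, a rise of 1.34 (SE 0.29, adjusted p 0.021, limma) and 1.58 after scaling. Neither group overlapped the other in these 3 genes. The Eno1 copy Eno1b, at 0.719 to 5.57 TPM across embryo libraries, was also higher (1.70, adjusted p 0.00665, limma). The Tpi1 and Eno1 calls were lost without some of the libraries: the adjusted p was 0.147 for Tpi1 without SCNT_EGFP_L2C replicate 1, and up to 0.11 for Eno1.

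Gapdh was at 2.93 and 2.40 TPM against 0.832 and 0.861 TPM, a difference of 0.99 (SE 0.24, adjusted p 0.0312, limma) that passed 2-fold after scaling at 1.15 (adjusted p 0.0234). Pfkm was at 6.18 and 5.51 TPM against 1.92 and 3.58 TPM, at 0.90 (SE 0.29, adjusted p 0.0653, limma) and 1.14 after scaling (adjusted p 0.0352). Ldha at 6.21 and 3.37 TPM overlapped ICSI_L2C (0.04, adjusted p 0.943, limma). Ldhb at 110 and 129 TPM was below both ICSI_L2C libraries (-0.69, adjusted p 0.111, limma).

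**Figure D5:**
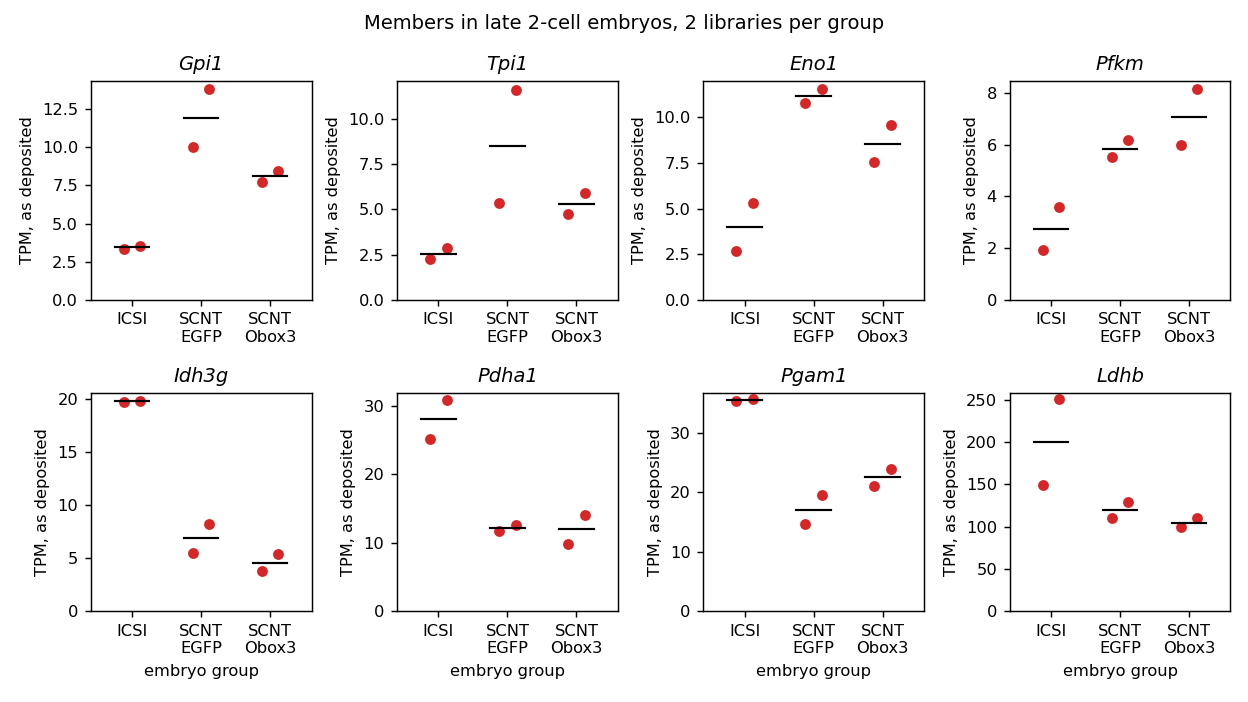
TPM of 8 members in late 2-cell embryos (y axes, linear from 0) by embryo group (x axes). Points are the 2 libraries of each group and lines their mean. Gpi1, Tpi1 and Pfkm are above ICSI in all 4 SCNT libraries, and Idh3g, Pdha1 and Pgam1 below it.

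Of the lower genes, Idh3g and Pdha1 act in mitochondria and Pgam1 in glycolysis. Idh3g, a subunit of the NAD-dependent isocitrate dehydrogenase of the TCA cycle (chromosome X, 73778963 to 73786897), was at 5.50 and 8.24 TPM against 19.8 and 19.7 TPM. It fell by 1.42 on the log2 scale (SE 0.25, adjusted p 0.0112, limma) and by 1.14 after scaling (adjusted p 0.0161). Without ICSI_L2C replicate 2 or SCNT_EGFP_L2C replicate 1 its adjusted p was 0.0511 or 0.0623. Pdha1 (chromosome X, 160122219 to 160138430) was at 11.8 and 12.6 TPM against 25.2 and 30.9 TPM, a difference of -1.13 as deposited (SE 0.22, adjusted p 0.0151, limma) and -0.85 after scaling (adjusted p 0.0381). Without ICSI_L2C replicate 2 its adjusted p was 0.0733, and without either SCNT_EGFP_L2C library 0.0815 or 0.0505. Pgam1, phosphoglycerate mutase, named beyond the rule after its values were seen, was at 14.7 and 19.5 TPM against 35.7 and 35.4 TPM (-1.03, SE 0.19, adjusted p 0.0131, limma; -0.74 after scaling), and its named copies summed to 10.6 to 46.1 TPM across embryo libraries. The other 2 subunits of the same enzyme, Idh3a at 7.39 and 8.97 TPM and Idh3b at 4.02 and 3.51 TPM, were at -0.04 and -0.57 and did not pass.

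Of the members, 3 lie on chromosome X: Pgk1, Pdha1 and Idh3g. In SCNT_EGFP_L2C against ICSI_L2C they were at -0.60, -1.13 and -1.42. Over the 540 X-linked genes tested the median was -0.37 with 15.0% called lower, and over 14698 autosomal genes it was -0.19 with 12.5% called lower. After scaling the medians were -0.13 on X and 0.06 on autosomes. The values for the chromosome are given beside the members, and its part in their difference was not tested.

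No member passed the test between the 2 kinds of nuclear transfer embryo. In SCNT_Obox3_L2C against SCNT_EGFP_L2C, limma called 0 of 33 members in either direction, as deposited (0.11% of all genes higher, 0.0438% lower) and after scaling (1.05% and 0.165%), and 4 had an unadjusted p under 0.05 under each. The members' differences had a median of -0.13, against -0.03 over all genes. Gapdh was at 1.36 and 1.41 TPM, below both EGFP libraries and above both ICSI_L2C libraries (-0.62, SE 0.24, adjusted p 0.255, limma). Ldha was at 3.59 and 3.43 TPM (-0.32, SE 0.35, adjusted p 0.684, limma) and Ldhb at 99.4 and 110 TPM (-0.19, SE 0.27, adjusted p 0.752). A p that misses the threshold with 2 libraries per group does not show that the groups are alike.

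Against ICSI_L2C, the SCNT_Obox3_L2C embryos had Gpi1 called higher and Idh3g and Pdha1 lower (2.8% and 6.31% of all genes), and after scaling Gpi1, Pfkm and Hk1 higher and Idh3g lower (4.16% and 3.65%). This comparison shares the ICSI_L2C libraries with the one above. Idh3g was at 3.75 and 5.39 TPM, a difference of -1.91 (SE 0.25, adjusted p 0.0104, limma) and -1.66 after scaling (adjusted p 0.0113). Without ICSI_L2C replicate 1 its adjusted p was 0.0515. Gpi1 was at 8.44 and 7.74 TPM, a rise of 1.03 (SE 0.22, adjusted p 0.0308, limma), with adjusted p from 0.096 to 0.131 when any 1 library of the 2 groups was left out. Pdha1 was at 14.1 and 9.82 TPM (-1.18, SE 0.22, adjusted p 0.0236, limma; -0.91 after scaling), and leaving out either ICSI_L2C library or SCNT_Obox3_L2C replicate 2 gave 0.0657 to 0.117. Pfkm was at 8.15 and 5.99 TPM (1.13, adjusted p 0.0524, limma; 1.35 and 0.0354 after scaling), and Hk1 at 4.65 and 4.90 TPM (0.91, adjusted p 0.0573; 1.11 and 0.0322 after scaling). Gapdh (0.37, adjusted p 0.353, limma), Ldha (-0.27, adjusted p 0.645) and Ldhb (-0.88, adjusted p 0.0794) did not pass.

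The share of Pfkm in phosphofructokinase was 53.8 and 45.7% in SCNT_Obox3_L2C, above 39.7 and 36.5% in SCNT_EGFP_L2C and 20.7 and 30.9% in ICSI_L2C. Pfkl, the liver-type enzyme, took 66.3 and 52.9% in ICSI_L2C and 33.6 to 45.5% in the 4 nuclear transfer libraries. The Pfkm level overlapped between SCNT_Obox3_L2C and SCNT_EGFP_L2C, with means of 7.07 and 5.85 TPM (0.23, adjusted p 0.722, limma). Pfkp had means of 1.72 and 3.43 TPM in the same order (-0.68, adjusted p 0.268, limma). The share of Slc2a1 among the transporters was 80.3 and 50.7% in SCNT_EGFP_L2C against 39.6 and 36.8% in SCNT_Obox3_L2C and 38.2 and 29.5% in ICSI_L2C, but the levels were low, at 1.84 to 7.50 TPM for both genes. Between SCNT_EGFP_L2C and SCNT_Obox3_L2C the groups did not overlap in the Pfkm and Slc2a1 shares and overlapped in the Pfkl share.

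Marker sums, taken as deposited, moved with these groups. The 2-cell marker list summed to 718 and 529 TPM in ICSI_L2C, 149 and 218 TPM in SCNT_EGFP_L2C and 254 and 349 TPM in SCNT_Obox3_L2C. The cumulus cell list of 12 genes summed to 24.7 and 28.4, 11.2 and 13.9, and 19.6 and 20.1 TPM, with 1 to 3 genes at 1 TPM or more. Genes of the cumulus list above 0 TPM numbered 8 and 8, 9 and 9, and 10 and 11 in the same order. Against ICSI_L2C the sum was thus lower and this count higher in the nuclear transfer embryos, whose donor nuclei were cumulus nuclei. A count above 0 TPM also depends on depth. On a 1-kb gene, 1 TPM was worth 7.41 and 5.06 reads in ICSI_L2C. It was worth 9.66 and 10.2 reads in SCNT_EGFP_L2C and 13.9 and 7.89 in SCNT_Obox3_L2C. The part of depth in the count was not tested. With so few genes at 1 TPM or more, the sum does not show that cumulus markers as a set were lower. The oocyte list of 11 genes summed to 832 and 774 TPM in ICSI_L2C, 626 and 673 TPM in SCNT_EGFP_L2C and 533 and 562 TPM in SCNT_Obox3_L2C, and the ES cell list to 412 and 473, 241 and 233, and 327 and 310 TPM. The part of these lists in the members' values was not tested.

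The further genes of glucose metabolism were also compared in embryos. Of the 96, 74 were tested in embryos as deposited, and 9 rose and 7 fell under both scalings in SCNT_EGFP_L2C against ICSI_L2C, where 4.75% of all genes rose and 7.85% fell. Tktl1, a transketolase-like gene of the pentose phosphate pathway, was at 2.22 and 1.30 TPM against 22.7 and 31.5 TPM, the largest of these differences in size (-3.35, SE 0.28, adjusted p 0.00181, limma). Mpc1, a subunit of the carrier that brings pyruvate into mitochondria, was at 5.42 and 4.83 TPM against 26.2 and 20.2 TPM (-1.97, SE 0.20, adjusted p 0.00263, limma). Esrrb fell by 2.09 (adjusted p 0.00867, limma), while Mycn rose by 2.20 (adjusted p 0.0164, limma), a call lost without ICSI_L2C replicate 2 or SCNT_EGFP_L2C replicate 1 (adjusted p 0.0705 and 0.0999). In SCNT_Obox3_L2C against ICSI_L2C, Tktl1 (-3.57, adjusted p 0.00506, limma) and Got1 (-1.64, adjusted p 0.0104) were lower and Idh2 (2.21, adjusted p 0.0134) and Tkt (1.83, adjusted p 0.00976) higher. The Idh2 call was lost without any 1 library of the 2 groups (adjusted p 0.0536 to 0.0587).

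Between SCNT_Obox3_L2C and SCNT_EGFP_L2C, 0 of 74 further genes were called as deposited by limma, with 11 at an unadjusted p under 0.05, and 2 after scaling: Pdp2 and Tigar, named here after their values were seen. Pdp2 was at 91.6 and 80.5 TPM in SCNT_Obox3_L2C, 30.0 and 40.5 TPM in SCNT_EGFP_L2C and 122 and 112 TPM in ICSI_L2C. Its difference from SCNT_EGFP_L2C was 1.28 as deposited (SE 0.20, adjusted p 0.0753, limma) and 1.26 after scaling (SE 0.17, adjusted p 0.0424). Tigar was at 85.1 and 81.4 TPM, against 32.2 and 44.2 TPM and 103 and 100 TPM. Its difference was 1.12 as deposited (SE 0.19, adjusted p 0.0864, limma) and 1.10 after scaling (SE 0.15, adjusted p 0.0424). Both genes were ordered ICSI_L2C, SCNT_Obox3_L2C, SCNT_EGFP_L2C with no overlap, and both were also higher in ES_Obox3 than in ES_Empty, where Tigar rose by 1.54 (SE 0.22, adjusted p 0.0018, limma).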

How the data were processed

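Stranded total RNA libraries of mouse ES cells (19) and late 2-cell embryos (6) were read from 2 tables of TPM deposited by the authors, per the file headers. The build mm10 is listed in the submitters' processing notes, along with featureCounts 1.6.5, HISAT2, Bowtie2, Trim Galore, MACS2, deepTools and bedtools, whose roles are not stated there. For the annotation and for multiply mapped reads, the step is not given in the sources used here. Groups came from the labels. The ES_Dux, ES_Obox3 and ES_Obox5 groups each hold 1 unnumbered library, whose column gives the group but no number found in the labels.

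Members and lists were chosen with earlier results of these data known. limma 3.58.1 in R 4.3.3 (trend, robust) was fitted to log2(TPM + 1), with a pseudocount of 1 TPM, on all replicated groups of a table together, for genes at 1 TPM or more in at least 2 libraries, with Benjamini-Hochberg adjustment over all genes (20355 in ES cells, 18252 in embryos). Fold changes on this scale understate those of low genes. Calls needed an adjusted p under 0.05 and a log2 change of 1. All members were tested in ES cells and 33 in embryos. The fit was tested on simulated data.

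The text names, per comparison, the 5 largest members called both as deposited and after median-ratio scaling, the 3 largest called under 1 of these, Gapdh, Ldha and Ldhb, and the 4 largest of the other lists called under both. Genes of an enzyme family, subunits of a complex and members that make up a small count are named beside them, chosen after their values were seen. Alternatives were median-ratio scaling, a pseudocount of 0.5, no filter, the 2 groups alone, each library left out, and a replicate block. TPM keep no depth, but from the lowest values 1 read on a 1-kb gene was worth 0.136 to 0.441 TPM in ES cells and 0.0718 to 0.198 TPM in embryos, so values near 1 TPM rest on few reads. Across genes, the 2 libraries within each group correlated at 0.951 to 0.971, and no pair was identical. Positions and promoter sequences are RefSeq's on GRCm38.p6, matched by symbol.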

Additional observations from a re-analysis of the deposited data

How the results depend on the processing

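The scaling decided most counts of members called. After median-ratio scaling 0 members were lower in ES_Dux, ES_Obox3, ES_Obox5 and ES_Obox6 against ES_Empty, and 4 were higher in ES_Obox6. ES_Dux against ES_Obox3 had 3 higher and 0 lower, SCNT_EGFP_L2C against ICSI_L2C 5 and 1, and SCNT_Obox3_L2C against ICSI_L2C 3 and 1. With no filter, the last comparison had 0 higher and 1 lower, and SCNT_EGFP_L2C against ICSI_L2C had 1 higher. With only the 2 groups compared, ES_Obox6 had 0 lower. Leaving out 1 library at a time gave 14 to 23 members lower in ES_Dux, 4 to 16 in ES_Obox3, 0 to 1 in ES_Obox5 and 0 to 1 in ES_Obox6, where 1 to 1 were higher. It gave 3 to 5 lower in ES_Dux and 3 to 10 higher in ES_Obox6 against ES_Obox3. In embryos it gave 1 to 3 higher and 0 to 3 lower in SCNT_EGFP_L2C, and 0 to 1 higher and 0 to 2 lower in SCNT_Obox3_L2C, against ICSI_L2C. A fit with 1 library in an arm assumes that it varies like the other groups. The cause was not tested.

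Scaling reversed the sign of Gapdh, Ldha and Ldhb in ES_Dux against ES_Empty (0.055, 0.39 and 0.72), of Ldha in ES_Obox3 (0.020) and ES_Obox6 (0.24), of Gapdh (0.47) and Ldha (0.37) in ES_Dux against ES_Obox3, and of Ldhb in ES_Obox6 against ES_Obox3 (-0.14). Leaving out 1 library also changed signs. Ldha ranged from -0.28 to 0.27 in ES_Obox6 against ES_Empty, and Gapdh from -0.27 to 0.16 in ES_Dux against ES_Obox3 over the numbered libraries (-0.71 without the unnumbered ES_Obox3 library). In embryos Ldha ranged from -0.34 to 0.43 in SCNT_EGFP_L2C against ICSI_L2C, from -0.68 to 0.045 in SCNT_Obox3_L2C against SCNT_EGFP_L2C, and from -0.66 to 0.11 in SCNT_Obox3_L2C against ICSI_L2C. Among all alternative values of named genes, 967 kept sign and call, 80 lost the call, 13 gained it and 15 changed sign. These include fits that left out a library outside the comparison, which cannot change the log2 difference. The 967 is thus not a measure of stability.

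Same-numbered libraries did not deviate together (correlation of deviations 0.0141 to 0.0666), so the replicate numbers were not taken to pair samples. In a fit with the replicate block, ES_Obox6 against ES_Empty had 0 members higher and 0 lower, with Pfkm at 1.70 (SE 0.12) and an adjusted p of 0.0769 (limma). That fit held only the ES_Empty and ES_Obox6 libraries. It thus had fewer degrees of freedom than the main fit. With the block, the ES_Obox6 calls of Ldhb, Pdp2, Hkdc1, Slc16a3 and Mycn were lost too (adjusted p 0.0783, 0.0769, 0.0772, 0.0782 and 0.0918, limma). In a fit of the same libraries without the block, Pfkm, Pdp2, Hkdc1, Slc16a3 and Mycn kept their calls. Ldhb lost its call there (adjusted p 0.0507, limma). The block also takes up a degree of freedom, and its part apart from that was not tested. Values near 1 TPM, such as Gapdh and Suclg1 in embryos, are limited by depth.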
